A study of Mus musculus with 11 samples.

Results

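The JNK, p38 and ERK group comprises 42 genes of the mitogen-activated protein kinase (MAPK) cascades, taken from a fixed list of symbols and sorted by role into upstream kinases (MAP3K), middle kinases (MAP2K), terminal kinases with their direct substrate kinases (MAPK), JNK scaffolds, dual-specificity phosphatases and transcription factors. A gene was measured where a probe set carried its symbol and no other, and the probe set with the highest mean over all 11 arrays was kept. That gave 40 of the 42 genes, out of 22180 genes measured in the same way and 41345 probe sets in all. Mapk3 (ERK1) and Map2k7 (MKK7) had no such probe set and are not analysed here.

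RNA came from S3 tubules, the straight last part of the proximal tubule in the outer medulla of the kidney, of 129/SvEv mice. The groups were 5 arrays of THP -/- mice, which lack Tamm-Horsfall protein (uromodulin, encoded by Umod), and 6 arrays of wild-type mice, called knockout and wild type here. Batch 1 held 3 knockout and 5 wild-type arrays, and batch 2 held 2 knockout arrays and 1 wild-type array. The labels give no age, sex, treatment, description of the deleted allele or method of tubule capture. They also leave unsaid whether arrays stand for separate mice, and p-values then cover only array-to-array spread, which may be technical. Each array was made from 2 ng of total RNA and gave log2 signals with a median of 3.85 to 4.01, and precision is limited by how many arrays there were. Genotype differences are knockout minus wild type on the log2 scale, adjusted for batch.

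In a MAPK cascade a MAP3K phosphorylates a MAP2K, which phosphorylates the terminal MAPK on a threonine and a tyrosine of its activation loop. MEK1 and MEK2 (Map2k1, Map2k2) serve the ERKs, which respond mainly to growth factors, while MKK4 and MKK7 serve JNK, and MKK3 and MKK6 (Map2k3, Map2k6) serve p38, in response to cytokines, osmotic and oxidative stress. Dual-specificity phosphatases reverse the step, and AP-1 and ATF proteins carry the signal to genes. In tubules these pathways are known for their activation by oxidants and ischaemia. Activity in them is set by phosphorylation, which transcript arrays do not measure.

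The labels were first checked on the arrays. Umod read 3.68, 4.26, 4.67, 4.55 and 5.27 on knockout arrays 1 to 5, against a lowest, median and highest wild-type value of 5.27, 5.67 and 6.74. Only knockout array 5 reached the lowest wild-type value. The sources used here do not place the Umod probe set inside or outside the deleted part. Among other defining genes, the S3 amino acid carrier Slc7a13 read 9.73 to 11.54 in knockout and 9.91 to 10.54 in wild type, so S3 RNA was present on every array. Knockout array 4 stood apart: the thick ascending limb cotransporter Slc12a1 read 10.05 there and 5.22 to 7.54 on the other 10 arrays. The list mean of 5 distal convoluted tubule markers was 6.48 there and at most 5.46 elsewhere. For 9 collecting duct markers it was 5.38 there and at most 4.54 elsewhere. Differences that turned sign or moved by over 1.5 times without knockout array 4 are given without it as well. Knockout array 2 and wild-type array 5 read low for markers of the proximal tubule segments S1 and S2. Slc22a6 read 6.98 and 7.59 on these arrays and 9.14 to 9.91 on the others, and Slc34a1 10.73 and 10.90 against at least 11.69. In such bulk RNA fewer cells of a type and less RNA per cell cannot be told apart.

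None of the 40 measured genes differed between genotypes past an adjusted p of 0.05 in limma with Benjamini-Hochberg over all 41345 probe sets, where 0 probe sets passed in all (0%). The smallest adjusted p among the 40 was 0.63. At an unadjusted p under 0.05, 1 gene of the 40 was called, Map2k4, higher in knockout. Over the whole arrays 6.16% of probe sets lay under that p (3.4% higher and 2.76% lower in knockout). So did 5.64% of genes, 808 higher and 444 lower in knockout. Without knockout array 4 the count was also 1. Fitted differences ran from -0.22 to 0.61, with standard errors of 0.11 to 0.24. All 40 95% intervals stayed within 2-fold either way and 31 of them within 1.5-fold. Each interval holds for its gene alone and not for all 40 together, and differences of dim genes may be compressed. No gene had groups without overlap, against 0.627% of all genes and 0.597% of all probe sets.

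Among the listed genes the direction of the differences was uneven along the cascade. Of the 9 MAP3K genes, 8 had a positive fitted difference, and of the 5 MAP2K genes all 5 did, with medians of 0.16 and 0.23. By comparison 53.4% of all 22180 genes had a positive difference, with a median of 0.015. Further down the cascade the balance was close to even, with 4 of 9 MAPK genes, 1 of 2 scaffolds, 3 of 7 phosphatases and 3 of 8 target factors positive. Their medians were -0.020, 0.037, -0.050 and -0.037. These are counts of signs, none of which passed a test over all probe sets, and genes of 1 tier share the same arrays. Genes of the upper tiers outside the list went both ways. Map3k10 (0.075), Map3k14 (0.019), Map3k15 (0.0066), Map3k21 (0.18) and Braf (0.14) were positive. Map3k8 (-0.054), Map3k9 (-0.15), Map3k13 (-0.15), Map3k20 (-0.075), Araf (-0.020) and Map2k5 (-0.37) were negative.

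**Figure D1:**
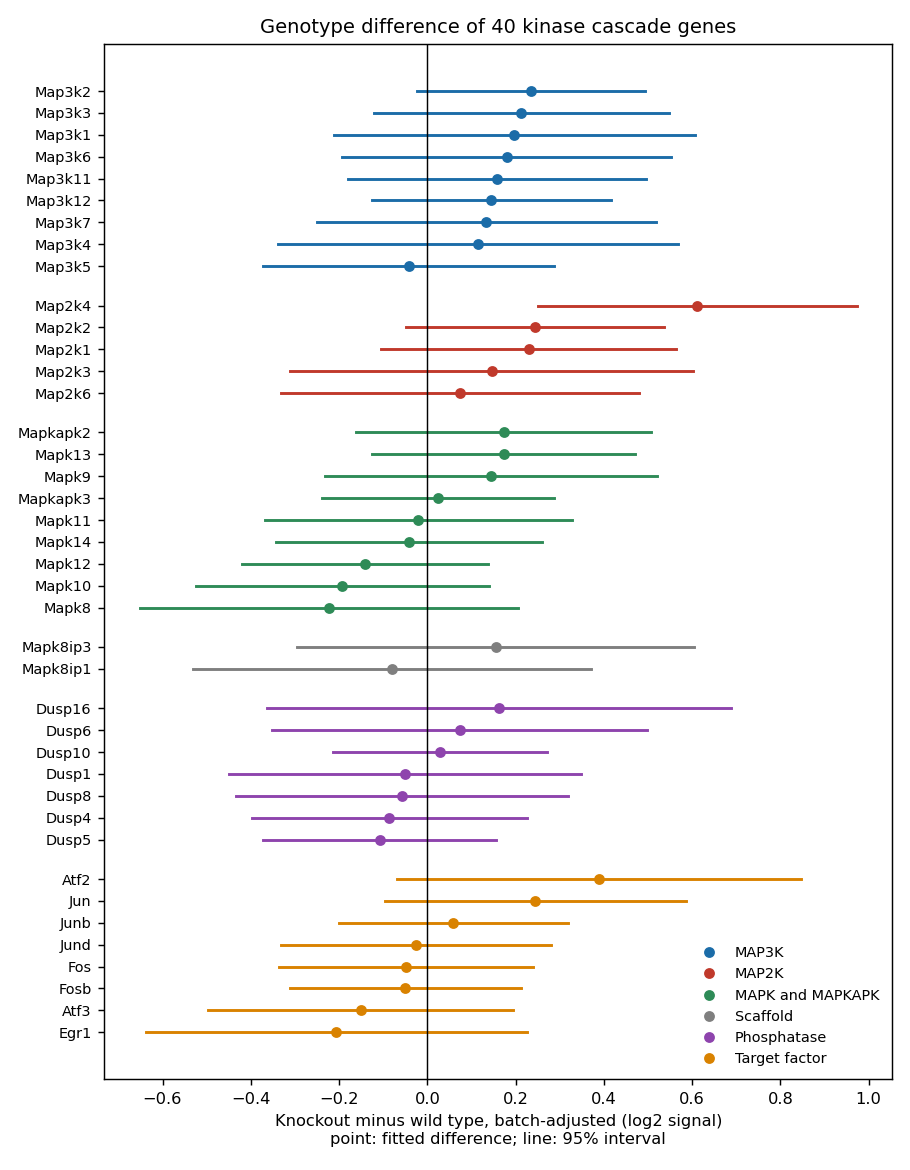
Fitted genotype difference of the 40 measured genes in log2 signal (horizontal axis, knockout minus wild type, batch-adjusted) with its 95% interval, grouped and coloured by role from MAP3K at the top to target factors at the bottom. The 5 MAP2K and 8 of the 9 MAP3K points lie right of 0, and Map2k4 at 0.61 is the only gene whose interval does not cross it.

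Averaged over a tier, the MAP2K genes read 5.49 ± 0.114 (SD, n = 5) on knockout arrays and 5.24 ± 0.098 (SD, n = 6) on wild-type arrays. The knockout arrays ran from 5.37 to 5.62 and the wild-type arrays from 5.13 to 5.34, without overlap. The difference was 0.24 within batch 1 and 0.32 within batch 2, where batch 2 rests on a single wild-type array. The separation of the MAP2K means depended on Map2k4. Averaged over the other MAP2K genes, knockout arrays 2 and 3 lay below wild-type arrays 2 and 3, so the groups overlapped. The share of other 5-gene means without overlap was not counted. For the MAP3K tier the mean was 4.96 ± 0.115 in knockout and 4.81 ± 0.082 in wild type, with 0.15 within batch 1 and 0.14 within batch 2, but the knockout array with the lowest mean, at 4.82, lay inside the wild-type range of 4.69 to 4.89. The MAPK tier read 4.90 ± 0.116 in knockout and 4.91 ± 0.076 in wild type, and the phosphatase tier 4.43 ± 0.109 and 4.43 ± 0.071. These tier means carry no test, because the genes were chosen with results of these arrays known.

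Marker levels of tubule segments are given beside these tiers. The mean of 8 S3 markers read 8.50 to 9.40 on knockout arrays and 7.75 to 8.91 on wild-type arrays, and 7 of the 8 had a positive fitted difference. The mean of 8 S1 and S2 markers read 5.84 to 7.16 in knockout and 6.18 to 7.18 in wild type, with 0 of 8 positive. For 8 thick ascending limb markers, Umod among them, the mean was 5.46 to 7.10 in knockout and 5.29 to 6.10 in wild type, with 7 of 8 positive. Endothelial markers were at 4.45 to 4.91 in knockout and 4.41 to 4.67 in wild type, with 7 of 7 positive, and macrophage and leukocyte markers at 4.15 to 4.38 and 4.04 to 4.36, with 7 of 11 positive. No marker in these lists passed an adjusted p of 0.05. Their part in the MAP2K and MAP3K values was not tested. Without knockout array 4 the medians were 0.12 for MAP3K, 0.20 for MAP2K and -0.0092 for the scaffolds, and 8 of 9 and 5 of 5 genes again had a positive difference. Without knockout array 1 those counts were 7 of 9 and 4 of 5.

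**Figure D2:**
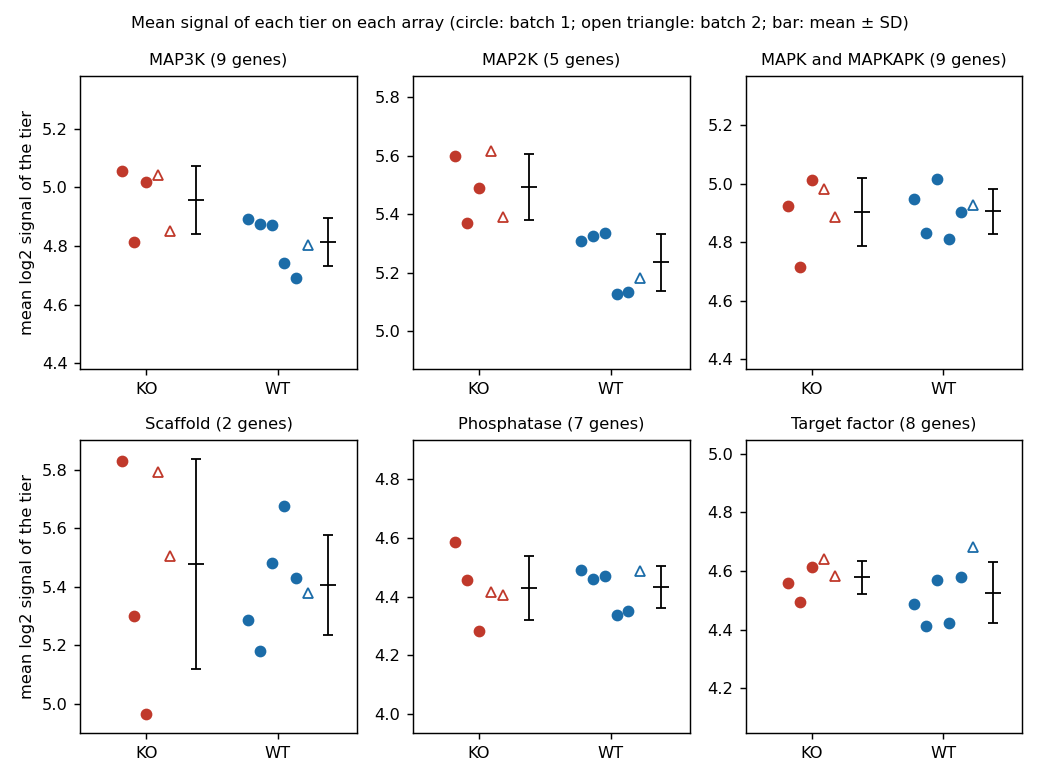
Mean log2 signal of the measured genes of each tier (vertical axis) on each knockout (left, red) and wild-type (right, blue) array, with filled circles for batch 1, open triangles for batch 2 and bars for the mean ± SD. The 5 knockout arrays lie above all 6 wild-type arrays for MAP2K, where the separation depends on Map2k4, and the groups overlap in the other 5 panels.

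Among the MAP3K genes the smallest p belonged to Map3k2 (MEKK2, which acts on the ERK5 and JNK branches). It read 4.86, 4.48, 4.92, 4.70 and 4.65 on knockout arrays 1 to 5, against 4.28, 4.54 and 4.58 as lowest, median and highest wild-type value. On 4 of 5 knockout arrays the value lay above every wild-type array. Its difference was 0.23 ± 0.12 (SE; 95% interval -0.023 to 0.49), with an adjusted p of 0.823 in limma and an exact permutation p of 0.0298 within batches, two-sided, where the arrangements allow none below 0.00595. Map3k2 and Map2k4 were the 2 of 40 genes with an exact p under 0.05, before any allowance for 40 tests. At that threshold chance alone lets through about 1 in 20 genes. The exact test was not run over all genes, so no share stands beside this count.

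Map3k3 (MEKK3), a close relative of MEKK2, read 5.21, 5.02, 5.29, 5.68 and 4.94 in knockout, against 4.88, 4.98 and 5.28 in wild type. Only arrays 3 and 4 of the knockout group exceeded the wild-type maximum, and the difference was 0.21 ± 0.15 (limma adjusted p = 0.856), or 0.12 without array 4. Map3k5 (ASK1), the kinase that thioredoxin holds inactive until oxidants release it, was the member of the tier with a negative sign. It read 5.73, 5.72, 5.47, 5.75 and 5.83 in knockout, against 5.42, 5.78 and 6.01 in wild type, so all knockout values lay inside the wild-type range. The difference was -0.042 ± 0.15, with a 95% interval from -0.37 to 0.29 (limma adjusted p = 0.975), and it was -0.12 within batch 1 and 0.17 within batch 2. Map3k5 read above the upper quartile of all probe sets on every array, so its signal was not among the dim ones.

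The other 6 MAP3K genes had positive differences between 0.11 and 0.20. They were Map3k1 (MEKK1) at 0.20 ± 0.19, Map3k6 (ASK2, a partner of ASK1) at 0.18 ± 0.17, Map3k11 (MLK3) at 0.16 ± 0.15, Map3k12 (DLK) at 0.15 ± 0.12, Map3k7 (TAK1, which relays cytokine and TGF-beta signals) at 0.13 ± 0.17 and Map3k4 (MEKK4) at 0.11 ± 0.21, each ± SE. For Map3k6 the difference was 0.0087 within batch 1 and 0.66 within batch 2, where the single wild-type array read 3.16, the lowest of all. Map3k7, Map3k11 and Map3k12 had a negative difference within batch 2. The second probe set of Map3k4 was at 0.081 ± 0.12, with the same sign.

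Map2k4 (MKK4, which phosphorylates JNK and, less strongly, p38) had the largest fitted difference of the 40 genes. It read 6.02, 5.45, 6.07, 5.68 and 5.25 on knockout arrays 1 to 5, against 4.94, 5.07 and 5.45 as lowest, median and highest wild-type value. Arrays 1, 3 and 4 of the knockout group lay above every wild-type array, array 2 equalled the wild-type maximum and array 5 lay inside the wild-type range. The difference of 0.61 ± 0.16 (SE; 95% interval 0.25 to 0.97) is a 1.53-fold higher signal, with an interval of 1.19-fold to 1.96-fold. It was 0.64 within batch 1, 0.53 within batch 2 and 0.57 without knockout array 4. The unadjusted limma p was 0.00334 and the exact permutation p 0.0238, but over all probe sets the limma adjusted p was 0.63, and over the settings tried it lay between 0.454 and 0.998. Leaving out each array in turn gave differences between 0.53 and 0.74, and the unadjusted p stayed under 0.05 in the main fit and all 22 alternatives that have a test.

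Map2k2 (MEK2), a direct activator of ERK, read 7.0, 7.29, 7.13, 7.26 and 7.01 in knockout, against 6.56, 6.98 and 7.09 in wild type. Here 3 of 5 knockout arrays exceeded the wild-type maximum, and wild-type arrays 4 and 5 were the lowest. Its difference was 0.24 ± 0.13 (95% interval -0.049 to 0.54), with an adjusted p of 0.826 in limma and an exact permutation p of 0.0595. Map2k1 (MEK1) was at 0.23 ± 0.15, Map2k3 (MKK3) at 0.15 ± 0.21 and Map2k6 (MKK6) at 0.074 ± 0.18. For Map2k3 knockout array 4 read 5.88 and the other 4 knockout arrays 5.07 to 5.30, and without that array, the one with the high distal nephron markers, the difference was 0.054 ± 0.19.

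**Figure D3:**
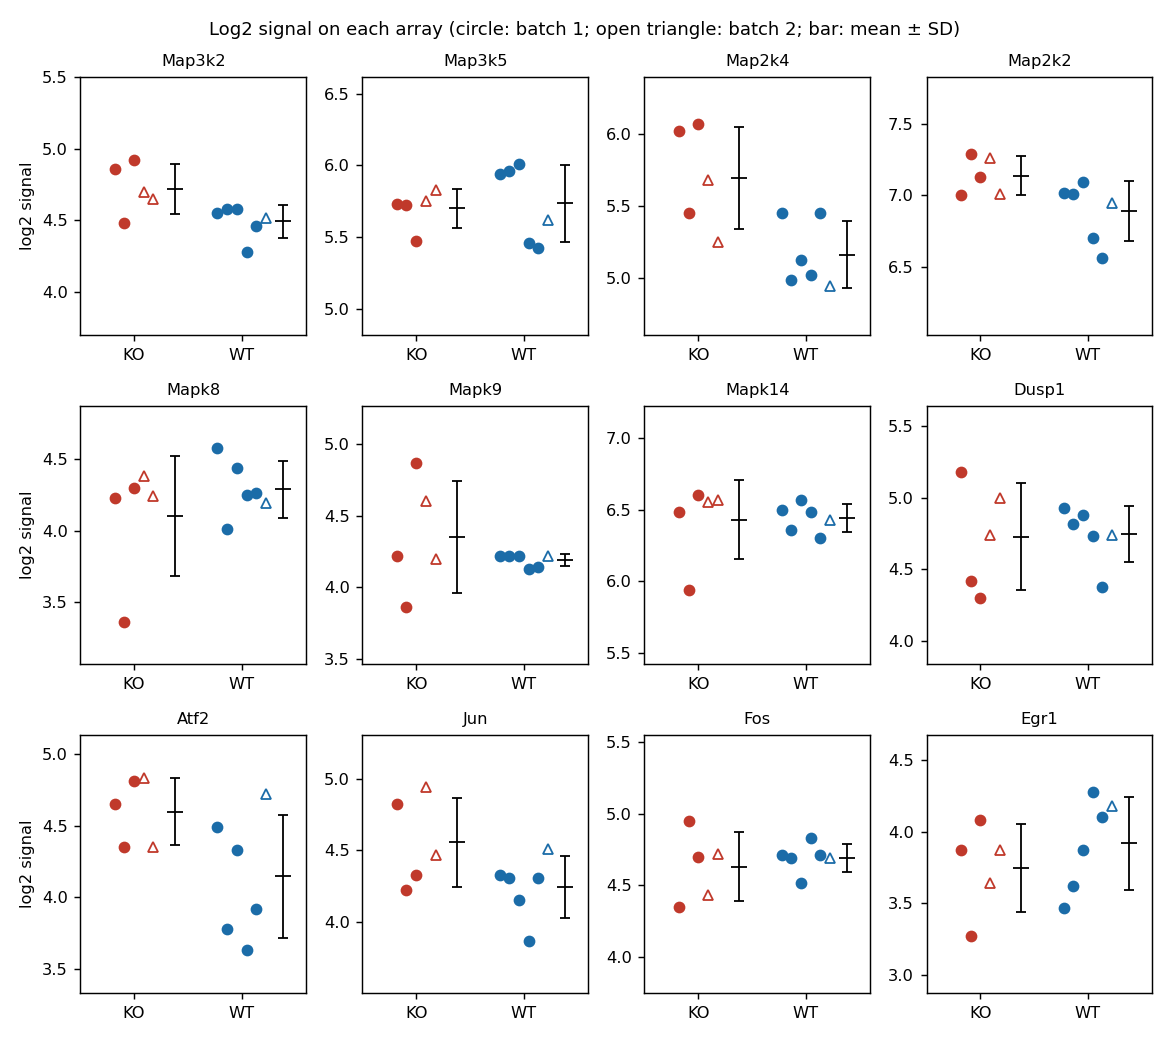
Log2 signal of 12 genes (vertical axes of equal span) on every knockout (left, red) and wild-type (right, blue) array, with filled circles for batch 1, open triangles for batch 2 and bars for the mean ± SD. For Map2k4 and Map3k2 most knockout points lie above the wild-type points, while for Mapk14, Fos and Dusp1 all wild-type points lie inside the knockout range.

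Terminal kinases showed no shared direction. Mapk8 (JNK1) read 4.23, 3.36, 4.30, 4.38 and 4.24 on knockout arrays 1 to 5, against 4.01, 4.26 and 4.58 in wild type. Knockout array 2, with the low S1 and S2 markers, stood below all other arrays, and the remaining 4 knockout arrays lay inside the wild-type range. The difference of -0.22 ± 0.19 (95% interval -0.65 to 0.21; limma adjusted p = 0.877) rested on that array, and without it the value was 0.0089. Mapk9 (JNK2) read 4.22, 3.86, 4.87, 4.60 and 4.20 in knockout, against 4.13, 4.22 and 4.22 in wild type. The 6 wild-type arrays agree within an SD of 0.044, the lowest spread of any group of the 40 genes. The knockout arrays had an SD of 0.391. Wild-type arrays 1, 2, 3 and 6 and knockout array 1 shared the same Mapk9 value of 4.22, for a reason not tested. Its difference was 0.14 ± 0.17 (limma adjusted p = 0.908), and -0.042 without knockout array 3.

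Mapk10 (JNK3, known mainly from neurons) read 3.48, 3.22, 3.60, 3.36 and 3.29 in knockout, against 3.36, 3.51 and 3.96 in wild type. No array gave Mapk10 a signal above the array's median, so a difference there could be compressed, and the value was -0.19 ± 0.15 (limma adjusted p = 0.865). Of the p38 kinases Mapk14 (p38 alpha, the broadly expressed form) read 6.48, 5.94, 6.6, 6.55 and 6.57 in knockout, against 6.30, 6.46 and 6.57 in wild type. Apart from knockout array 2 the 2 groups lay within the same narrow range. The difference was -0.041 ± 0.14 with a 95% interval from -0.34 to 0.26 (limma adjusted p = 0.973), and 0.11 without knockout array 2.

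Mapk13 (p38 delta) read 5.23, 5.30, 5.17, 5.18 and 4.47 in knockout, against 4.62, 5.09 and 5.18 in wild type. The lowest value of each genotype came from batch 2, and within the batches the difference was 0.16 and 0.20, for a fitted 0.17 ± 0.14 (limma adjusted p = 0.865). Mapk12 (p38 gamma) was at -0.14 ± 0.13 and Mapk11 (p38 beta) at -0.020 ± 0.16. Of the kinases that p38 activates, Mapkapk2 (MK2, which stabilises cytokine transcripts through its substrates) read 7.66 to 8.11 in knockout and 7.06 to 7.83 in wild type, a difference of 0.17 ± 0.15. Mapkapk3 (MK3) was at 0.024 ± 0.12, with knockout array 4 at 4.53 and the other knockout arrays at 4.09 to 4.13.

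The 2 scaffolds assemble JNK with its upstream kinases. Mapk8ip3 (JIP3) read 6.75, 6.42, 5.68, 6.68 and 6.31 in knockout, against 5.62, 6.20 and 6.55 in wild type. Arrays 1 and 4 exceeded the wild-type maximum while array 3 was close to its minimum, and the difference was 0.15 ± 0.20 (limma adjusted p = 0.921). A neighbouring probe set annotated to both Eme2 and Mapk8ip3, not used for names, was at 0.0034 ± 0.21. Mapk8ip1 (JIP1) read 4.91, 4.18, 4.25, 4.90 and 4.70 in knockout, against 4.21, 4.70 and 5.14 in wild type. Its difference was -0.32 within batch 1 and 0.59 within batch 2, and -0.081 ± 0.20 in the fit (limma adjusted p = 0.962), so the batches pointed in opposite directions.

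Dual-specificity phosphatases are themselves induced by the pathways they shut off, so their transcripts are often read as a trace of recent signalling. Dusp1 (MKP-1, which acts on p38 and JNK) read 5.18, 4.42, 4.30, 4.74 and 5.0 in knockout, against 4.38, 4.78 and 4.93 in wild type. The knockout arrays spread on both sides of the wild-type range, with 2 above and 1 below it. The difference was -0.050 ± 0.18 with a 95% interval from -0.45 to 0.35 (limma adjusted p = 0.975). Dusp5, a nuclear phosphatase specific to ERK, read 4.70, 4.62, 4.62, 4.39 and 4.59 in knockout, against 4.52, 4.71 and 5.01 in wild type. All but knockout array 4 lay inside the wild-type range, and the difference was -0.11 ± 0.12 (limma adjusted p = 0.904). Dusp16, which acts on JNK, had the widest spread of the 40 genes: it read 4.05, 4.27, 4.18, 4.89 and 3.41 in knockout, an SD of 0.529, against 3.59, 4.01 and 4.24 in wild type. The highest and the lowest of all 11 values both came from the knockout arrays of batch 2, and the difference was 0.16 ± 0.24 (limma adjusted p = 0.929). It was 0.019 without knockout array 4, the highest, and 0.33 without knockout array 5, the lowest.

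The remaining phosphatases gave differences close to 0. Dusp6, the cytoplasmic ERK phosphatase, had a bright probe set that read 5.59 to 6.43 in knockout and 5.44 to 6.73 in wild type, a difference of 0.073 ± 0.19, and its second probe set was at 0.081 ± 0.15. Dusp6 was at 0.26 within batch 1 and -0.46 within batch 2. Dusp4 (MKP-2, a nuclear phosphatase of ERK and JNK) was at -0.086 ± 0.14, Dusp8 (which acts on JNK and p38) at -0.057 ± 0.17 and Dusp10 (MKP-5, likewise) at 0.029 ± 0.11. No array read Dusp10 above its median, as for Mapk10.

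The transcription factors at the end of the cascades include the immediate early genes, whose transcription starts within minutes of a stimulus through factors that ERK, JNK and p38 phosphorylate. Promoter stretches of Fos, Jun, Atf3, Dusp1 and Dusp5 are shown because these genes are textbook reporters of the cascades. Each is the 150 bases before the gene's start from RefSeq (build GRCm38.p6), 5′ to 3′ on the gene's strand. Capitals mark matches on either strand to the cAMP response element TGACGTCA (CRE), its 6-base core TGACGT, the AP-1 element TGANTCA, its 8-base variant TGANNTCA, or the CArG box to which serum response factor binds. The 8-base variant and the core overlap the CRE by construction.
Fos (chr12:85473740-85473889, plus strand): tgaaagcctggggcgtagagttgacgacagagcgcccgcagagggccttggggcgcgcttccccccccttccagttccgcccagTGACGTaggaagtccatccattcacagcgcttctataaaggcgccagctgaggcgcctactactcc
Jun (chr4:95052223-95052372, minus strand): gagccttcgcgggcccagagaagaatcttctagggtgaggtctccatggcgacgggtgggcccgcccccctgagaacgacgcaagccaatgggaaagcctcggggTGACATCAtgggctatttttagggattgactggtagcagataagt
Atf3 (chr1:191183334-191183483, minus strand): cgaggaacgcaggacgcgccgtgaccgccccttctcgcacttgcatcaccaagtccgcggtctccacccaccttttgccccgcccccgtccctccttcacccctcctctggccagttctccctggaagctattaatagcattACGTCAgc
Dusp1 (chr17:26508473-26508622, minus strand): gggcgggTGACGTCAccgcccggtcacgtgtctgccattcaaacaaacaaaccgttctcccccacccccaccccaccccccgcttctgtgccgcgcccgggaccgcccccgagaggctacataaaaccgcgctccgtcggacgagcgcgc
Dusp5 (chr19:53528995-53529144, plus strand): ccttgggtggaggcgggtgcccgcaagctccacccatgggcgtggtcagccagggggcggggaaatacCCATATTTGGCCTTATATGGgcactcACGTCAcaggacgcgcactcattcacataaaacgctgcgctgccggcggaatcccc

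In these windows Fos and Atf3 hold a CRE core, Jun the 8-base AP-1 variant, Dusp1 a full CRE and Dusp5 a pair of adjacent CArG boxes beside a CRE core. Over the 250 bases before the start, searched the same way in 27025 genes, a full CRE was present in 1.77%, its core in 7.29%, the AP-1 element in 7.82%, its 8-base variant in 13.5% and a CArG box in 1.62%. Of 37 listed genes with a promoter in the table, 3 held a full CRE (Dusp1, Dusp8 and Mapk10), 9 its core, 2 the AP-1 element, 8 the variant and 1, Dusp5, a CArG box. A match is a run of letters and says nothing of binding in these tubules.

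Fos, the AP-1 partner that rises most sharply after stimulation, read 4.35, 4.95, 4.70, 4.43 and 4.72 on knockout arrays 1 to 5, against 4.52, 4.70 and 4.83 in wild type. The genotype medians were equal at 4.70, with 1 knockout array above and 2 below the wild-type range. The difference was -0.049 ± 0.13, with a 95% interval from -0.34 to 0.24, or 0.792-fold to 1.18-fold (limma adjusted p = 0.965). Egr1, a zinc finger factor and ERK target, read 3.87, 3.27, 4.08, 3.64 and 3.87 in knockout, against 3.47, 3.99 and 4.28 in wild type. Its probe set exceeded the array median on 4 of 11 arrays, so it was dim in both genotypes, and the difference was -0.21 ± 0.20 (95% interval -0.64 to 0.23; limma adjusted p = 0.885). Fosb was at -0.050 ± 0.12.

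Jun, the AP-1 subunit that JNK phosphorylates, read 4.82, 4.22, 4.33, 4.94 and 4.47 in knockout, against 3.87, 4.31 and 4.51 in wild type. Arrays 1 and 4 exceeded the wild-type maximum. The difference of 0.24 ± 0.15 had a 95% interval from -0.096 to 0.59 (limma adjusted p = 0.841; exact permutation p = 0.196), and was 0.26 within batch 1 and 0.20 within batch 2. Without knockout array 4 it was 0.20, and without knockout array 1 it was 0.12. Its relatives Junb and Jund were at 0.059 ± 0.12 and -0.026 ± 0.14. A second probe set of Jund, dimmer than the first, read lower in knockout, at 4.60 against 4.99 in wild type (-0.33 ± 0.14; unadjusted p = 0.0347, limma adjusted p = 0.783), so the sign was the same and the size was not.

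Atf2, which JNK and p38 phosphorylate, had the second largest difference of the 40 genes. It read 4.65, 4.35, 4.81, 4.83 and 4.35 in knockout, against 3.63, 4.13 and 4.72 in wild type. The wild-type maximum came from the single wild-type array of batch 2, and the difference was 0.57 within batch 1 and -0.13 within batch 2. The fitted value was 0.39 ± 0.21 (95% interval -0.069 to 0.85; limma adjusted p = 0.826; exact permutation p = 0.125). Atf3, a stress-induced repressor of the same family, read 4.07, 4.70, 4.14, 4.49 and 4.73 in knockout, against 4.42, 4.51 and 4.87 in wild type. Arrays 1 and 3 lay below every wild-type array, and the difference was -0.15 ± 0.16 (95% interval -0.50 to 0.19; limma adjusted p = 0.896), at -0.27 within batch 1 and 0.19 within batch 2.

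Across arrays the genes did not follow a single pattern. Knockout array 4 gave the highest value of all arrays for 10 of the 40 genes, among them Map3k1, Map3k3, Map2k1, Map2k3, Mapkapk2, Dusp16, Atf2 and Jun, and the lowest for 5, among them Mapk11 and Dusp8. Without knockout array 4 the sign turned for 4 genes, with differences of 0.083 for Mapk11, -0.031 for Mapkapk3, 0.023 for Dusp8 and -0.017 for Dusp10. For 12 more the sign held and the size moved by over 1.5 times. Beside Map3k3, Map2k3 and Dusp16 above, the values without that array were 0.073 for Map3k4, 0.12 for Map2k6, -0.093 for Mapk12, 0.096 for Mapk13, -0.15 for Mapk8ip1, -0.026 for Dusp4, 0.12 for Dusp6, -0.014 for Jund and -0.014 for Fos. Wild-type array 4 gave the lowest value for 8 genes, among them Atf2, Jun, Jund, Map3k12 and Mapkapk2. The median of the 40 genes lay between 4.64 and 4.79 on the knockout arrays and between 4.5 and 4.75 on the wild-type arrays. Differences had the same sign within both batches for 21 of the 40 genes, 14 of them positive and 7 negative. The SD within a genotype had a median of 0.235 and reached 0.529, so most fitted differences were smaller than the spread between arrays of 1 genotype. By brightness, 7 genes read above the upper quartile on every array (Map3k5, Map2k2, Mapk14, Mapkapk2, Mapk8ip3, Dusp6 and Junb), and 13 read at or below the median on at least 1 array, Egr1, Mapk8, Mapk9 and Jun among them. No values of background were used, so the dim genes were not shown to be above it.

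**Figure D4:**
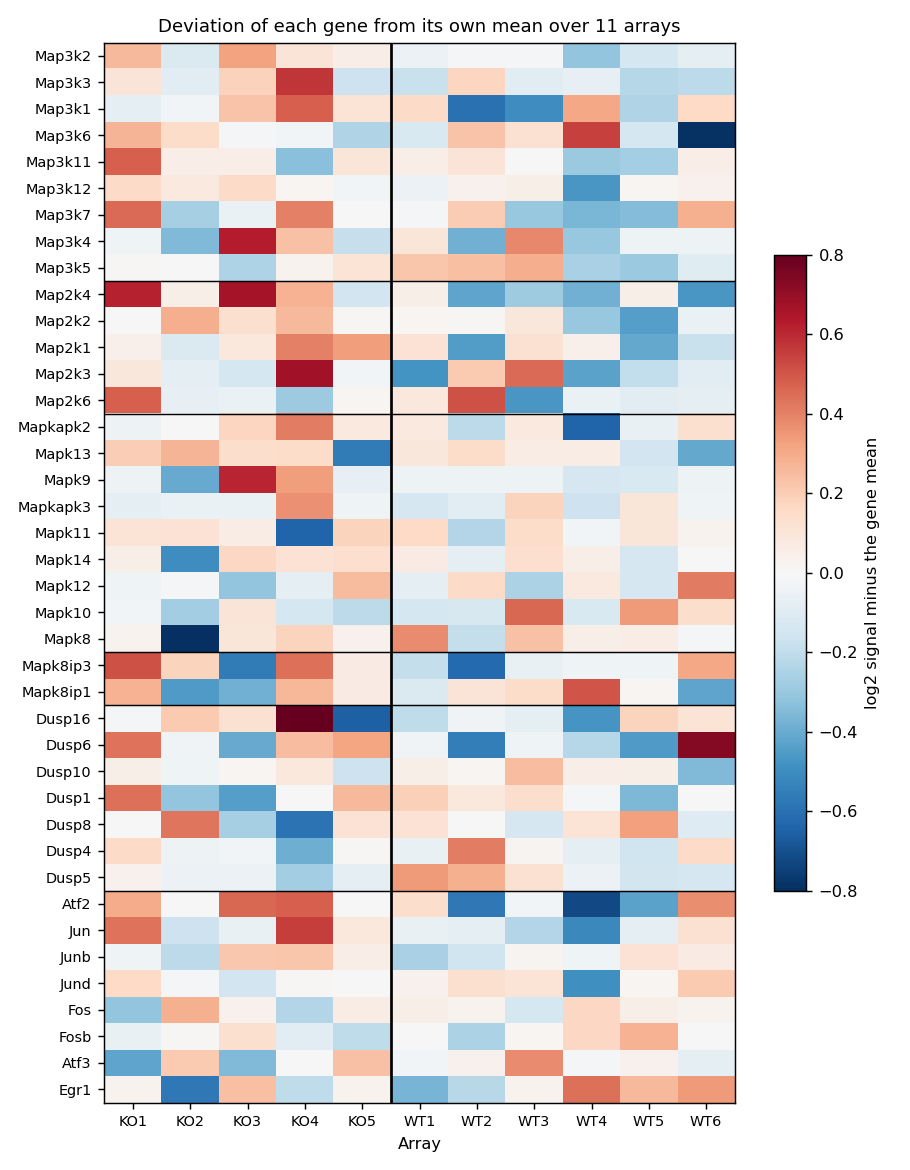
Log2 signal of each of the 40 genes minus its own mean over the 11 arrays, with arrays in columns (5 knockout left of the vertical line, 6 wild type right of it) and genes in rows ordered by tier and fitted difference. Red is above and blue below the gene's mean; the MAP2K rows are redder on the left, and knockout array 4 holds several of the deepest reds and blues.

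Other genes of the cascades, 100 symbols of which 87 were measured, were tested in the same fit. None passed the adjusted threshold in limma. An unadjusted p under 0.05 was found for 6 of 87, 5 higher and 1 lower in knockout. Of all 22180 genes 5.64% lay under that p, 808 higher and 444 lower in knockout. Of 26 other kinases 17 had a positive difference, with a median of 0.031. Map4k4, a kinase above the MAP3Ks of the JNK branch, read 6.05, 6.30, 5.94, 5.67 and 5.45 in knockout, against 4.76, 5.29 and 5.78 in wild type (0.62 ± 0.21; unadjusted p = 0.0128, limma adjusted p = 0.758). Its relative Map4k5 was at 0.33 ± 0.14 (limma adjusted p = 0.792) and the p38 substrate kinase Mapkapk5 at 0.26 ± 0.14 (limma adjusted p = 0.826). For Map4k4 the difference was 0.76 within batch 1 and 0.21 within batch 2.

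Of 33 other regulators 17 had a positive difference, with a median of 0.045. The JNK scaffold Mapk8ip2 (JIP2) read 3.36, 3.75, 3.49, 3.01 and 3.73 in knockout, against 3.64, 3.96 and 4.23 in wild type (-0.50 ± 0.17; limma adjusted p = 0.758). With 3 of 5 knockout arrays under the wild-type minimum it went the opposite way from Map2k4, in a dim range. Tab3, an adaptor of TAK1, was at 0.34 ± 0.13 (limma adjusted p = 0.769), above every wild-type array on 4 of 5 knockout arrays. Gadd45g, a stress-induced activator of MEKK4, read 5.25, 4.23, 4.67, 4.11 and 4.28 in knockout, against 3.39, 3.77 and 4.83 in wild type (0.67 ± 0.29; limma adjusted p = 0.792). Of 28 other immediate early and target genes 15 were positive, with a median of 0.021, including Ccn1 at 0.45 ± 0.20, Ier3 at 0.26 ± 0.13 and the ternary complex factor Elk3 at -0.33 ± 0.17 (limma adjusted p between 0.809 and 0.825).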

How the data were processed

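The authors deposited log2 signals per probe set. The submitters' processing notes name Partek 6.6 and RMA, which subtracts background, equalises array distributions and gives 1 value per probe set. Equalising can hide a change common to most genes. Batch correction, filters and the annotation's genome build are not given in the sources used here. RNA was labelled with biotin per the labels' protocols. Probe sets were named from the platform annotation: 23521 carried 1 symbol, 1814 several and 16010 none. Genotype and batch were terms of a two-sided fit to every probe set (R 4.3.3; lmFit, then eBayes, of limma 3.58.1; no filter on dim signals), with Benjamini-Hochberg adjustment over all 41345 probe sets and a threshold of 0.05, after the same step was tested on simulated data. Single genes were also tested by exact permutation of genotype within batches (40 genes). Folds are 2 to the power of the fitted difference. The members and lists were chosen with earlier results of these data known, so lists are described by counts and medians only. The naming rule took Fos, Jun, Egr1, Atf3, Dusp1, Mapk8, Mapk9, Mapk14 and Map3k5, and the 2 genes with the smallest p of each tier. They are described array by array in knockout and by lowest, median and highest value in wild type. Of the other cascade genes up to 3 per list are named, some without array values. MAP3K genes outside the list and Map2k5 are given by their difference only. Alternatives were the model without batch or with batch as a random block, each batch alone, a block for the replicate number, a filter on dim probe sets, median centring, quantile normalization, a robust trended prior, array weights, 1 probe set or the mean of all probe sets per gene, and each array left out. Red blood cell markers had no named probe set here. Thin limb markers averaged 3.45 in knockout and 3.50 in wild type, podocyte markers 4.06 and 4.09, fibroblast and pericyte markers 4.02 and 3.96, collecting duct markers 4.46 and 4.33, and markers of the whole proximal tubule 10.2 and 10.1. Plots used matplotlib 3.10.9.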

Additional observations from a re-analysis of the deposited data

Results flagged for a closer look

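In 80 groups of values (40 genes in each genotype), 10 held an array far from the others by Dixon's criterion at its 95% critical value, where chance flags about 1 in 20 groups. Knockout array 4 was far above the others for Map2k3 (5.88, others 5.07 to 5.30) and Mapkapk3 (4.53, others 4.09 to 4.13) and far below them for Mapk11 (3.59, others 4.29 to 4.41). Knockout array 2 was far below for Mapk8 (3.36, others 4.23 to 4.38) and Mapk14 (5.94, others 6.48 to 6.6), and knockout array 5 for Mapk13 (4.47, others 5.17 to 5.30). Among wild-type arrays, array 4 was far below for Map3k12 (4.12, others 4.54 to 4.63) and Jund (4.88, others 5.39 to 5.58), array 5 for Dusp1 (4.38, others 4.73 to 4.93), and array 3 was far above for Atf3 (4.87, others 4.42 to 4.53). The cause of these values was not tested.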

How the results depend on the processing

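Under all 22 alternatives with a test, no gene of the 40 passed an adjusted p of 0.05, and Map2k4 kept a positive difference between 0.53 and 0.74. The count of the 40 genes with an unadjusted p under 0.05 was 2 in place of 1 (Atf2 beside Map2k4) without a batch term, with batch as a random block and in batch 1 alone, and ran from 1 to 2 without each array in turn. Probe sets past the adjusted threshold numbered 3 in batch 1 alone, 1 with 1 probe set per gene, 1 with the mean of all probe sets of a gene and 0 to 11 without each array (11 without knockout array 5, 3 without wild-type array 6). In batch 2 alone, with 3 arrays and no test, the median was 0.415 for MAP2K, 0.12 for MAPK and -0.12 for target factors. The MAP2K median of 0.23 was 0.12 in batch 1 alone, 0.15 with quantile normalization and 0.077 with the replicate block, where the MAP3K median of 0.16 was 0.097. Of the genes described array by array, several turned sign in batch 2 alone. They were Atf3 (0.19), Dusp1 (0.13), Mapk8 (0.12), Mapk14 (0.13), Map3k5 (0.17), Mapk8ip3 (-0.055), Mapk8ip1 (0.59), Dusp16 (-0.020) and Atf2 (-0.13). The labels' replicate numbers did not pair the arrays (correlations of deviations from -0.18 to 0.012, 0 of 5 knockout arrays closest to their own number). With the replicate block the target factor median was 0.095, Fos was at 0.027 and Egr1 at 0.087, and 4 of 5 MAP2K genes were positive. Without each array in turn the MAP2K median ran from 0.12 (without wild-type array 6) to 0.28 and the MAP3K median from 0.11 to 0.21, and the other tiers crossed 0, at -0.055 to 0.035 for MAPK, -0.10 to 0.19 for scaffolds, -0.11 to 0.048 for phosphatases and -0.043 to 0.014 for target factors. Among the genes described array by array, ranges that crossed 0 were -0.15 to 0.054 for Fos, -0.22 to 0.077 for Dusp1, -0.34 to 0.0089 for Mapk8, -0.042 to 0.30 for Mapk9, -0.12 to 0.11 for Mapk14, -0.12 to 0.032 for Map3k5, -0.020 to 0.34 for Mapk8ip3 and -0.32 to 0.061 for Mapk8ip1. The cause of these turns was not tested. Differences of the dim genes may be compressed, since signal over background was not available for use.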
